A study of Mus musculus with 12 samples.

Results

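The SMAD family comprises the intracellular transducers of TGF-β and BMP signaling, and all 8 of its mouse genes (*Smad1*, *Smad2*, *Smad3*, *Smad4*, *Smad5*, *Smad6*, *Smad7* and *Smad9*) were examined, out of 56980 genes in the count matrix. Members were taken by gene symbol. Expression was measured by bulk RNA-Seq in 12 libraries of the W-20-17 cell line (W-20 in the text of the study), with 3 libraries in each of 4 groups. It is a murine bone marrow stroma line that can take on an osteoblast phenotype. Unmodified cells (called WT) and Y428F cells were each exposed for 2 hours to 50 nM PTH, the hormone that regulates calcium and bone turnover, or to vehicle (PBS), and all were grown in DMEM with serum and antibiotics. Library totals were 17513924 to 19018693 counts for WT cells with vehicle, 17127897 to 17750085 for WT cells with PTH, 17670681 to 19057319 for Y428F cells with vehicle and 17731876 to 18064022 for Y428F cells with PTH.

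Y428F cells are a stable line selected with puromycin after introduction of a plasmid that encodes Flag-tagged YAP, the transcriptional coactivator restrained by Hippo signaling, with a tyrosine replaced by phenylalanine. The labels name only this change, whereas the results text that goes with the RNA-Seq names cells in which a serine of YAP was changed as well, so the sequenced line may carry both changes. The genotype label of the libraries titled Y428F reads WT, and the titles were followed here. Libraries from a line carrying introduced wild-type YAP were not analysed here, so the mutation, the introduced protein and any other difference between the lines cannot be told apart. Nothing in the labels says that the 3 libraries of a group came from separate cultures, so the p-values measure only the spread between these libraries.

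SMAD proteins carry signals from receptors at the cell surface to the nucleus. BMP-type receptors phosphorylate SMAD1, SMAD5 and SMAD9 (also called SMAD8), whereas TGF-β and activin receptors phosphorylate SMAD2 and SMAD3, and either set enters the nucleus with the common partner SMAD4. SMAD6 and SMAD7 are inhibitory members that block receptors or their substrates and are themselves known as targets of the pathway, which closes a feedback loop. In bone marrow stroma, BMP signals are known to favor osteoblast differentiation, and TGF-β signals to act on matrix production and lineage choice.

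The expression of the 8 genes is plotted for each library. Levels are given in CPM, the count of a gene relative to the library size after TMM scaling. Levels of different SMAD genes are compared per kilobase of the longest transcript in GENCODE (basic set), unless the median length is named. Values per kilobase below are CPM per kilobase. Cell-type markers are summed and ranked in CPM, without division by length.

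**Figure D1:**
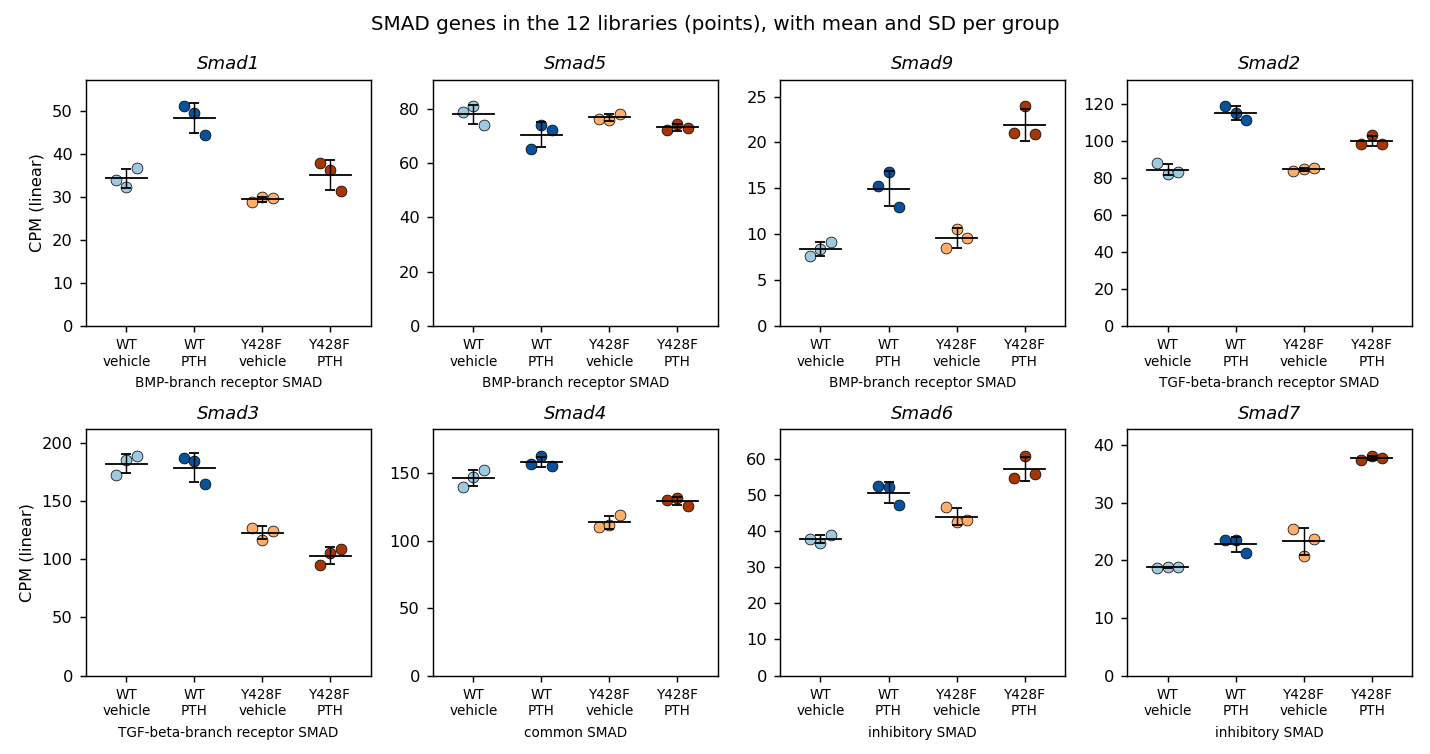
CPM of each SMAD gene (linear axes from 0, one panel per gene, its class under the panel) in the 12 libraries. Points are libraries, horizontal lines are means and error bars are SD over 3 libraries. *Smad9*, *Smad6* and *Smad7* were highest in the Y428F libraries with PTH, and *Smad3* was lowest there.

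In WT cells with vehicle, *Smad3* had the highest level of the family per kilobase, at 34.5 ± 1.62 (SD, n = 3), followed by *Smad4* at 23.2 ± 0.987. *Smad6* (12.4 ± 0.364), *Smad5* (10.7 ± 0.496), *Smad2* (8.81 ± 0.322) and *Smad1* (8.74 ± 0.572) formed the middle of the order, *Smad7* was at 4.17 ± 0.019, and *Smad9* was lowest at 1.52 ± 0.132. Only the libraries of *Smad2* and *Smad1* overlapped among neighbors in this order. With PTH, *Smad1* and *Smad2* overlapped again, at 12.3 ± 0.879 and 12.0 ± 0.398, and both stood above *Smad5* at 9.70 ± 0.635. In Y428F cells with vehicle the order was that of WT cells with vehicle, with no overlap between any neighbors. The place of *Smad2* before *Smad1* depended on the length used. By the median transcript length, *Smad1* stood above *Smad2* in both vehicle groups, at 11.3 against 9.07 per kilobase (WT) and 9.68 against 9.10 (Y428F). In Y428F cells with PTH, *Smad4* (20.5 ± 0.458), *Smad3* (19.5 ± 1.32) and *Smad6* (18.7 ± 1.08) came first, where the libraries of *Smad3* overlapped those of both others, and every *Smad4* library lay above every *Smad6* library. *Smad2* and *Smad5*, and *Smad1* and *Smad7*, also overlapped in that group, and *Smad9* remained lowest at 3.99 ± 0.317. With the median transcript length in place of the longest, *Smad6* was first in this group at 21.7 per kilobase, ahead of *Smad4* at 21.6 and *Smad3* at 19.7.

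The inhibitory class made up 15.9% ± 0.343 (SD, n = 3) of the summed level per kilobase in WT cells with vehicle, 18.4% ± 0.274 in WT cells with PTH, 21.9% ± 1.03 in Y428F cells with vehicle and 26.9% ± 0.415 in Y428F cells with PTH, with no overlap between the libraries of any of these groups. The share of the TGF-β-branch pair went the other way, with 41.6% ± 0.336, 39.0% ± 0.739, 35.8% ± 0.351 and 29.8% ± 1.21 in the same order. The summed level of that pair was 43.3 ± 1.33, 45.8 ± 2.71, 32.1 ± 0.989 and 29.9 ± 1.42 per kilobase in that order, and its libraries overlapped between vehicle and PTH within WT cells. Shares of the BMP-branch genes ranged from 19.9% to 23.8% and those of *Smad4* from 19.3% to 22.6% over the 12 libraries. The summed level itself was 104 ± 2.66 per kilobase in WT cells with vehicle and 117 ± 5.29 with PTH, and 89.4 ± 2.05 and 100.5 ± 2.76 in Y428F cells. These shares are a description of the levels and were not tested.

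**Figure D2:**
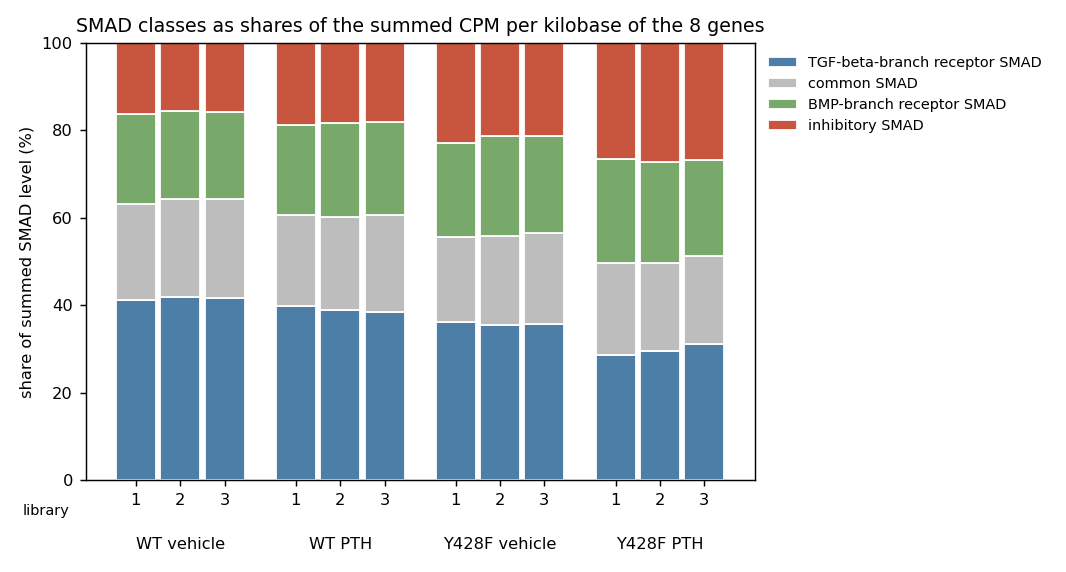
Share (%) of each SMAD class in the summed CPM per kilobase of the 8 genes, for each of the 12 libraries. Each stacked bar is 1 library, and the inhibitory share grows from 15.6% in the lowest WT library with vehicle to 27.3% in the highest Y428F library with PTH.

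Sequences before the start of the canonical transcript are given for 3 members that the results turn on: *Smad9*, which had the largest change with PTH, *Smad3*, which had the largest difference between the lines, and *Smad6*, which lies beside *Smad3* on the same strand and moved the other way. *Smad3* (minus strand, from 63554049 to 63665476) and *Smad6* (minus strand, from 63860341 to 63929793) lie on chromosome 9 of GRCm39, 194864 bases apart with 0 protein-coding genes between them. *Smad9* (plus strand) lies from 54662963 to 54708680 on chromosome 3. Of the others, *Smad1* (minus strand, from 80065023 to 80126168) is on chromosome 8 and *Smad5* (plus strand, from 56850797 to 56890190) on chromosome 13. The canonical transcripts have 6 exons for *Smad9*, 9 for *Smad3* and 4 for *Smad6*. The 250 bases before each start, from GRCm39 with GENCODE vM39, are written 5′ to 3′ on the strand of the gene, with matches to the letters CAGAC (or GTCTG on the other strand) and GGCGCC, both known from SMAD binding, in capitals. The windows are chr3:54662713-54662962 for *Smad9*, chr9:63665477-63665726 for *Smad3* and chr9:63929412-63929661 for *Smad6*. The *Smad6* window lies within the bounds of the annotated gene, which reach further upstream than the canonical start.
Smad9: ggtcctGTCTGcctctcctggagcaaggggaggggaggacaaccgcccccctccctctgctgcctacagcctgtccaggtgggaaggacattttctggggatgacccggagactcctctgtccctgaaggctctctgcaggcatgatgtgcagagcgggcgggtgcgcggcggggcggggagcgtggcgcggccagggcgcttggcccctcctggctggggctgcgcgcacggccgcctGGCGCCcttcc
Smad3: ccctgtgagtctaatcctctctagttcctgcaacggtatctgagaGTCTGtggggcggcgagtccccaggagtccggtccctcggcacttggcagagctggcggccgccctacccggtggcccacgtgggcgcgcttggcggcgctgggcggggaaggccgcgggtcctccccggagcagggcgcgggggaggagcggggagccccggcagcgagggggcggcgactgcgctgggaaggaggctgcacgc
Smad6: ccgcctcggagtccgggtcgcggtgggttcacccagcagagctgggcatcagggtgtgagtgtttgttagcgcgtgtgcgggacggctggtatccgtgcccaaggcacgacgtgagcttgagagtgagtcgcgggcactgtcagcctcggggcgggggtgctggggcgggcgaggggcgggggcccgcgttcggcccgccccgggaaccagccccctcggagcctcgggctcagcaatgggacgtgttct

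The *Smad9* window held 1 match to GTCTG, starting 244 bases before the start, and 1 to GGCGCC, starting 11 bases before it. The *Smad3* window held 1 match to GTCTG, starting 205 bases before the start, and the *Smad6* window held neither. Of the other members, *Smad5* (chromosome 13), whose window partly overlaps its annotated gene, had 1 match to GGCGCC and *Smad1* (chromosome 8) had none. The windows of *Smad2*, *Smad4* and *Smad7* each held at least 1 match to one of the SMAD motifs searched, which for *Smad7* was the SMAD palindrome, and are not printed. Such matches are common, since 41.3% of the 21770 protein-coding promoters of the same length held CAGAC and 9.31% held GGCGCC (the same on either strand). The palindromes GTCTAGAC (SMAD, 0.239% of promoters) and TGACGTCA (the cAMP response element, 1.69%), and GGAATG (TEAD, 12.1%), were in none of the windows of *Smad1*, *Smad3*, *Smad5*, *Smad6* and *Smad9*. None of the motif strings lies within another, and a match is a description of the letters, not of a site. GC content was 71.2% for *Smad9* and for *Smad6* and 73.6% for *Smad3*.

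The first comparison asks how PTH changed the family in unmodified cells. Of the 8 members, 5 rose (*Smad9*, *Smad1*, *Smad2*, *Smad6* and *Smad7*), 0 fell and 3 did not pass an adjusted p of 0.05 (*Smad3*, *Smad4* and *Smad5*), by edgeR's quasi-likelihood test with adjustment by Benjamini-Hochberg over 17691 genes. Among all genes tested, 13.5% were called in either direction, 7.47% higher and 6.01% lower, and among the 8495 genes with a mean CPM at least that of the least expressed SMAD gene, 22.5% were called. The median log2 fold change of the 8 members was 0.35, against -0.02 for all genes. With an adjusted p under 0.01 and a log2 change beyond 0.3 required together, 4 members (*Smad9*, *Smad1*, *Smad2* and *Smad6*) and 6.32% of all genes were called. Because RNA was taken from whole cultures, fewer cells of a type and less RNA per cell cannot be told apart.

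Among the BMP-branch genes, *Smad9*, the lowest of them per kilobase, had 7.67, 8.36 and 9.12 CPM with vehicle and 15.3, 16.7 and 12.9 CPM with PTH. The lowest library with PTH stood well above the highest with vehicle. The log2 fold change was 0.84 (standard error 0.12, edgeR adjusted p = 1.12e-05), a 1.78-fold rise. It rests on 145 to 170 counts in the vehicle libraries and 222 to 272 in the PTH libraries. *Smad1*, a principal transducer for BMP receptors, had 34.0, 32.2 and 36.7 CPM with vehicle and 51.2, 49.5 and 44.5 CPM with PTH. Its groups did not overlap either, and it rose by 0.50 on the log2 scale (standard error 0.080, edgeR adjusted p = 6.3e-05). *Smad5*, closely related to *Smad1* in sequence and function, had 78.8, 81.0 and 73.9 CPM with vehicle and 65.2, 73.9 and 72.1 CPM with PTH. The highest library with PTH lay within rounding of the lowest with vehicle and just under it, and the log2 fold change of -0.15 (95% interval -0.27 to -0.02, edgeR adjusted p = 0.125) did not pass. A lncRNA on the opposite strand, *Gm64087*, shares 467 exon bases (5.09%) with *Smad1*, and whether the counting used strand is not given in the sources used here.

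In the TGF-β branch, *Smad2* had 88.1, 82.2 and 83.5 CPM with vehicle and 119, 115 and 111 CPM with PTH. All libraries with PTH were above all with vehicle, and the log2 fold change was 0.45 (standard error 0.056, edgeR adjusted p = 1.65e-06). *Smad3*, the partner of *Smad2* that binds DNA directly, had 173, 185 and 189 CPM with vehicle and 187, 185 and 164 CPM with PTH. The groups overlapped, with a log2 fold change of -0.03 (95% interval -0.16 to 0.10, edgeR adjusted p = 0.841). The common SMAD, *Smad4*, had 140.1, 147 and 153 CPM with vehicle and 157, 163 and 156 CPM with PTH. These groups did not overlap, but the log2 fold change of 0.11 (95% interval -0.00012 to 0.23, edgeR adjusted p = 0.200) did not pass. In all, 7 of the 8 members had groups that did not overlap, beside 26.4% of all genes.

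Both inhibitory genes rose. *Smad6*, whose product acts mainly on the BMP branch, had 37.7, 36.8 and 39.0 CPM with vehicle and 52.5, 52.0 and 47.3 CPM with PTH. The groups were separated by a gap of several CPM, and the log2 fold change was 0.42 (standard error 0.070, edgeR adjusted p = 9.79e-05). *Smad7*, whose product acts on both branches and recruits ubiquitin ligases to the TGF-β receptor, had 18.7, 18.8 and 18.9 CPM with vehicle and 23.6, 23.5 and 21.3 CPM with PTH. The vehicle libraries were nearly identical, and it rose by 0.28 on the log2 scale (standard error 0.087, edgeR adjusted p = 0.0315). The call for *Smad7* was lost with library totals in place of TMM (adjusted p = 0.0814), without WT vehicle library 2 (0.0614) or 3 (0.0674) and without WT PTH library 1 (0.116) or 2 (0.101), each by the same edgeR test. With library totals *Smad5* was instead called lower (log2 fold change -0.20, edgeR adjusted p = 0.0299), and the share of all called genes that were higher was 36.9% in place of 55.4%.

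**Figure D3:**
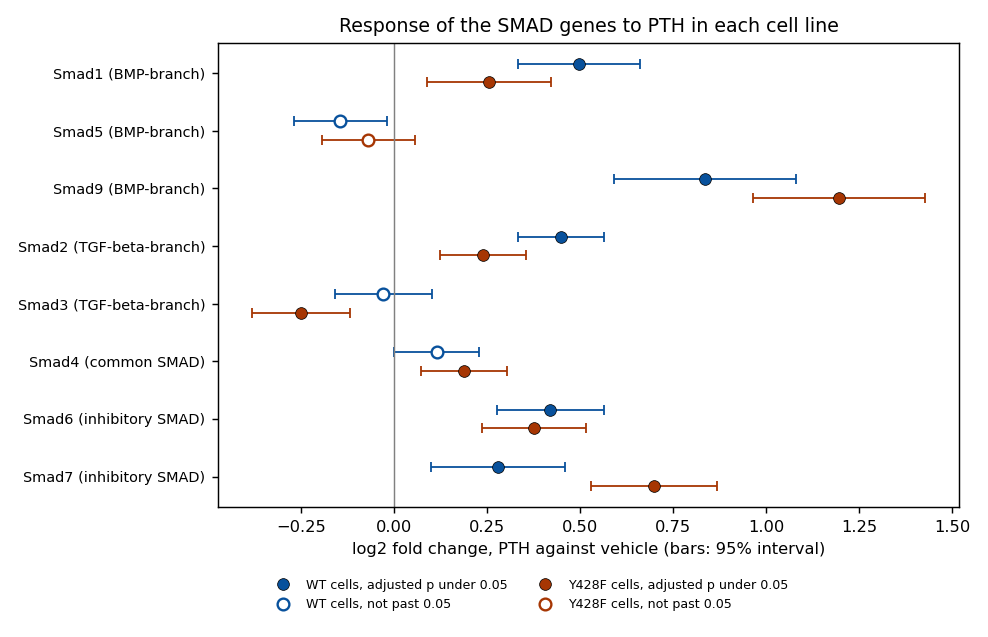
Log2 fold change with PTH against vehicle for each SMAD gene in WT and Y428F cells (x axis, log2 scale), with 95% intervals. Filled points passed an adjusted p of 0.05 and open points did not. *Smad9* had the largest rise in both lines (0.84 and 1.20), and *Smad3* has a filled point below 0 in Y428F cells (-0.25).

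The second comparison repeats the treatment in the line with mutant YAP. In Y428F cells 6 members rose (*Smad9*, *Smad7*, *Smad6*, *Smad1*, *Smad2* and *Smad4*), *Smad3* fell, and *Smad5* did not pass. Among all genes 12.7% were called, 6.75% higher and 5.94% lower (21.3% of the genes at least as expressed as the least expressed SMAD gene), and the groups of all 8 members did not overlap, beside 30.8% of all genes. The median log2 fold change of the members was 0.25, against -0.01 for all genes. Under the stricter limits 3 members (*Smad9*, *Smad7* and *Smad6*) and 5.71% of all genes were called.

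*Smad9* had 8.49, 10.6 and 9.61 CPM with vehicle and 21.0, 24.0 and 20.9 CPM with PTH. Every library with PTH was far above every library with vehicle, and the rise was 2.29-fold (log2 fold change 1.20, standard error 0.11, edgeR adjusted p = 2.11e-08). *Smad7* had 25.4, 20.7 and 23.6 CPM with vehicle and a narrow range of 37.4, 38.1 and 37.7 CPM with PTH. It rose by 0.70 on the log2 scale (standard error 0.083, edgeR adjusted p = 8.89e-07). *Smad6* had 46.6, 42.4 and 43.0 CPM with vehicle and 54.6, 60.8 and 55.7 CPM with PTH, and rose by 0.37 on the log2 scale (standard error 0.068, edgeR adjusted p = 0.000342). The inhibitory genes thus rose together in this line as well.

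The other receptor-regulated genes and *Smad4* had changes of at most 0.25 in size on the log2 scale. *Smad1* had 28.9, 29.9 and 29.7 CPM with vehicle and 38.0, 36.2 and 31.3 CPM with PTH, so that the lowest library with PTH lay close to those with vehicle (log2 fold change 0.25, standard error 0.082, edgeR adjusted p = 0.038). *Smad2* had 84.0, 85.0 and 85.5 CPM with vehicle and 98.5, 103 and 98.6 CPM with PTH (log2 fold change 0.24, standard error 0.056, edgeR adjusted p = 0.00434). Both rose, and the libraries with vehicle were tightly grouped for each. *Smad3* had 127, 117 and 124 CPM with vehicle and 95.4, 105 and 109 CPM with PTH, and was the 1 member that fell (log2 fold change -0.25, standard error 0.064, edgeR adjusted p = 0.00878). *Smad4* had 111, 111 and 119 CPM with vehicle and 130.4, 131 and 126 CPM with PTH (log2 fold change 0.19, standard error 0.056, edgeR adjusted p = 0.0257). *Smad5* did not pass, with 76.2, 76.0 and 78.3 CPM with vehicle and 72.1, 74.6 and 72.9 CPM with PTH (log2 fold change -0.07, 95% interval -0.19 to 0.05, edgeR adjusted p = 0.552).

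Several of these calls lay near the threshold, and with a library left out the log2 fold change was 0.20 to 0.33 for *Smad1*, 0.17 to 0.22 for *Smad4* and -0.29 to -0.20 for *Smad3*. The call for *Smad1* was lost without Y428F vehicle library 1 (adjusted p = 0.121), 2 (0.0892) or 3 (0.0871), without PTH library 1 (0.176) or 2 (0.102) and with library totals (0.0783), all by edgeR. That for *Smad4* was lost without vehicle library 1 (0.104) or 2 (0.102), without PTH library 1 (0.0508) or 2 (0.0648) and with library totals (0.0687), and that for *Smad3* without vehicle library 1 (0.0592) or PTH library 1 (0.0523). Without either of these 2 libraries, 4 members were called in place of 7, and these were *Smad2*, *Smad6*, *Smad7* and *Smad9*. With library totals the share of all called genes that were higher was 37.8% in place of 53.2%.

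The difference in response was tested as an interaction, the PTH response in Y428F cells minus the PTH response in WT cells. By edgeR 0 of the 8 members passed, while 0.486% of all genes did (0.209% higher and 0.277% lower), and 0.906% of those at least as expressed as the least expressed SMAD gene. Under the stricter limits 0.215% of all genes and again 0 members passed. DESeq2 also called 0 members, with 0.137 as its lowest adjusted p. At an unadjusted p under 0.05 there were 5 members (*Smad7*, *Smad2*, *Smad3*, *Smad9* and *Smad1*), where 6.82% of all genes were.

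*Smad7* had the largest difference, 0.42 on the log2 scale (95% interval 0.17 to 0.67, edgeR adjusted p = 0.179), where the responses themselves were 0.28 (WT) and 0.70 (Y428F). *Smad9* followed with 0.36 (95% interval 0.02 to 0.70, edgeR adjusted p = 0.674). Responses were smaller or more negative in Y428F cells for *Smad1* (difference -0.24, 95% interval -0.48 to -0.01, edgeR adjusted p = 0.694), *Smad3* (-0.22, 95% interval -0.41 to -0.04, edgeR adjusted p = 0.595) and *Smad2* (-0.21, 95% interval -0.37 to -0.05, edgeR adjusted p = 0.523). The intervals of these 5 members, which are not adjusted, lay to one side of 0, but none passed after adjustment over all genes. The differences of *Smad4* (0.07, 95% interval -0.09 to 0.23), *Smad5* (0.08, 95% interval -0.10 to 0.25) and *Smad6* (-0.04, 95% interval -0.24 to 0.16) were closer to 0.

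The line comparison asks how the family differed between the lines, with vehicle and with PTH. With vehicle, 2 members were higher in Y428F cells (*Smad7* and *Smad6*, both inhibitory), 3 were lower (*Smad3*, *Smad4* and *Smad1*) and 3 did not pass (*Smad2*, *Smad5* and *Smad9*). The lines differed across much of the transcriptome: 45.2% of all genes were called (22.5% higher and 22.7% lower), and 64.0% of the genes at least as expressed as the least expressed SMAD gene, so that 5 of 8 members called is close to the background. With PTH, *Smad7*, *Smad9* and *Smad6* were higher, *Smad3*, *Smad1*, *Smad4* and *Smad2* were lower, and *Smad5* did not pass, where 45.8% of all genes were called (22.8% higher and 23.0% lower), and 64.3% of the more expressed genes. Under the stricter limits 3 members with vehicle (*Smad3*, *Smad4* and *Smad7*) and 4 with PTH (*Smad3*, *Smad7*, *Smad9* and *Smad1*) were called, beside 31.3% and 31.8% of all genes. Groups did not overlap for 5 members with vehicle and 7 with PTH, beside 53.8% and 51.9% of all genes. The comparisons between the lines use the same libraries as those with PTH, so their values are not independent of them.

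*Smad3* showed the largest difference between the lines in either treatment. Its 3 libraries with vehicle were at 173 to 189 CPM in WT cells and 117 to 127 CPM in Y428F cells, and those with PTH at 164 to 187 and 95.4 to 109 CPM. The log2 fold change was -0.57 with vehicle (standard error 0.064, edgeR adjusted p = 1.92e-08) and -0.79 with PTH (standard error 0.064, edgeR adjusted p = 4.73e-11). *Smad4* was lower by smaller amounts, with log2 fold changes of -0.37 (standard error 0.056, edgeR adjusted p = 3.35e-06) and -0.30 (standard error 0.056, edgeR adjusted p = 6.69e-05). *Smad1* differed by -0.22 with vehicle (standard error 0.082, edgeR adjusted p = 0.0297) and by -0.46 with PTH (standard error 0.080, edgeR adjusted p = 2.15e-05). Its WT libraries with vehicle lay between 32.2 and 36.7 CPM, and its Y428F libraries between 28.9 and 29.9 CPM. *Smad2* overlapped between the lines with vehicle (log2 fold change 0.0045, 95% interval -0.11 to 0.12, edgeR adjusted p = 0.965) and was lower in Y428F cells with PTH (-0.20, standard error 0.056, edgeR adjusted p = 0.00342).

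The inhibitory genes were higher in both treatments, and *Smad9* with PTH. *Smad7* had 18.7 to 18.9 CPM in WT and 20.7 to 25.4 CPM in Y428F cells with vehicle (log2 fold change 0.31, standard error 0.086, edgeR adjusted p = 0.00449), and 21.3 to 23.6 and 37.4 to 38.1 CPM with PTH (0.73, standard error 0.083, edgeR adjusted p = 3.19e-08). The gap between the lines was wider with PTH, though the test of that change is the interaction given above, which did not pass. *Smad6* was higher by 0.22 with vehicle (standard error 0.070, edgeR adjusted p = 0.0121) and by 0.17 with PTH (standard error 0.068, edgeR adjusted p = 0.0399). *Smad9* overlapped between the lines with vehicle (log2 fold change 0.19, 95% interval -0.06 to 0.45, edgeR adjusted p = 0.215), but was higher in every Y428F library with PTH, at 20.9 to 24.0 against 12.9 to 16.7 CPM (0.55, standard error 0.11, edgeR adjusted p = 0.000121). *Smad5* differed by -0.02 with vehicle (95% interval -0.14 to 0.10, edgeR adjusted p = 0.830) and by 0.06 with PTH (95% interval -0.07 to 0.18, edgeR adjusted p = 0.495).

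The weaker calls depended on the fit. With vehicle, *Smad1* was not called by DESeq2 (adjusted p = 0.0531), with library totals (0.101), with a correction for transcript length (0.0816), without WT vehicle library 3 (0.156) or without Y428F vehicle library 1 (0.0761), 2 (0.0529) or 3 (0.0545), and *Smad6* was not called without WT vehicle library 2 (0.0534) or Y428F vehicle library 1 (0.087), which left 3 members called without the last of these, *Smad3*, *Smad4* and *Smad7*. With PTH, *Smad6* was not called without a filter on low counts (0.0507), without WT PTH library 3 (0.170), without Y428F PTH library 2 (0.237) or 3 (0.0707), or without any of 4 vehicle libraries (WT 2 at 0.0576, Y428F 1 at 0.0562, 2 at 0.0615 and 3 at 0.0643), and *Smad5* was called higher with the length correction (log2 fold change 0.14, edgeR adjusted p = 0.0459).

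**Figure D4:**
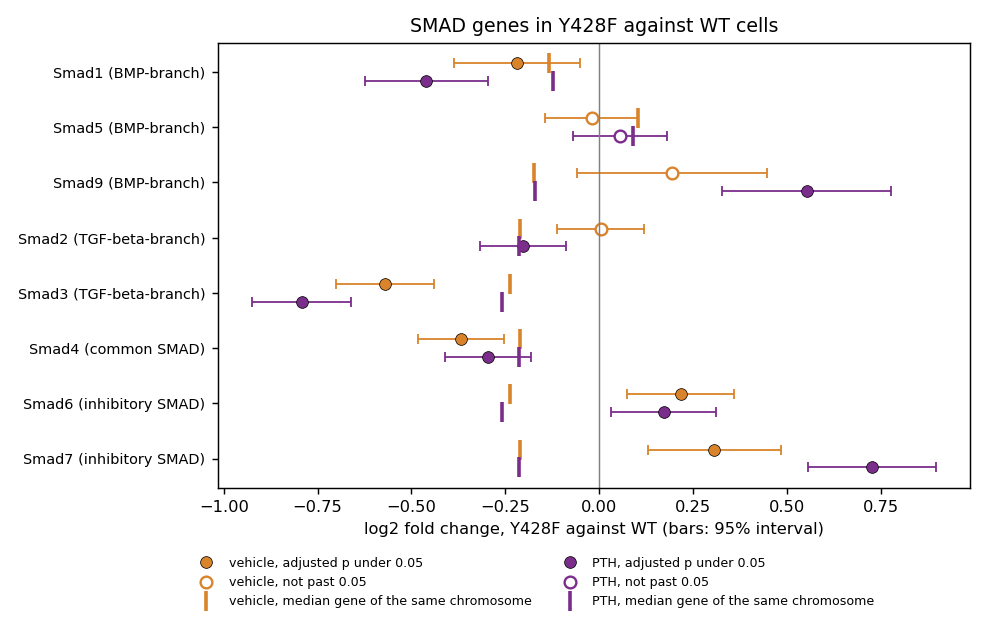
Log2 fold change of each SMAD gene in Y428F against WT cells (x axis, log2 scale) with vehicle and with PTH, with 95% intervals. Filled points passed an adjusted p of 0.05, open points did not, and vertical ticks mark the median log2 fold change of the genes on the same chromosome (averaging 4 CPM or more). *Smad3* and *Smad6*, which share chromosome 9, lay on either side of its median.

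Chromosomes differed in their median between the lines, and several that carry SMAD genes were lower in Y428F cells. With vehicle the median log2 fold change over genes averaging 4 CPM or more was -0.24 on chromosome 9 (572 genes), -0.21 on chromosome 18 (286 genes, with *Smad2*, *Smad4* and *Smad7*), -0.17 on chromosome 3 (530 genes), -0.13 on chromosome 8 (589 genes) and 0.10 on chromosome 13 (370 genes, with *Smad5*). *Smad3* lay below the median of its chromosome and *Smad6* above it. With PTH the chromosome 18 median was -0.21, beside -0.20 for *Smad2*, -0.30 for *Smad4* and 0.73 for *Smad7*. For *Smad1* the difference with vehicle was -0.22, beside -0.13 on chromosome 8, and with PTH -0.46, beside -0.12. Of the 16 other genes so expressed within 1 Mb of *Smad3*, 6 were called lower and 3 higher with vehicle, and of the 17 around *Smad6*, 9 were called lower and 2 higher. These windows overlap, so *Smad6* is among the genes called higher around *Smad3*, and *Smad3* among those called lower around *Smad6*. *Smad7* was higher in Y428F cells while, of 6 genes around it (*Smad2* among them), 2 were called lower and 0 higher. The part of these chromosome medians in the SMAD values was not tested.

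Markers of cell types moved with the line as well. The 12 bone marrow stroma markers summed to 20496 to 24280 CPM in WT and 14196 to 15248 CPM in Y428F cells with vehicle, and to 20350 to 23383 and 10643 to 13398 CPM with PTH. *Col1a2* was the most abundant of them in every library, at 5787 to 13773 CPM, and *Thy1* was at 0 counts in all 12 libraries. Between the lines with vehicle 9 of the 11 tested were called lower in Y428F cells, where 22.7% of all genes were, and 2 higher (*Ly6a* and *Lepr*), where 22.5% were, and with PTH 8 were lower and 2 higher (*Ly6a* and *Lepr*), where 23.0% and 22.8% were. All of those tested but *Lepr* were at least as expressed as the least expressed SMAD gene. At that level 64.0% (vehicle) and 64.3% (PTH) of genes were called in either direction. With PTH against vehicle, 2 were called lower within WT cells (*Pdgfra* and *Vcam1*) and 3 within Y428F cells (*Pdgfra*, *Col1a1* and *Col1a2*), beside 6.01% and 5.94% of all genes, of which *Pdgfra*, a receptor of mesenchymal progenitors, changed by -0.60 and -0.73 on the log2 scale.

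The summed endothelial, haematopoietic and epithelial markers were low and higher in Y428F cells, where with vehicle 1 of 3, 1 of 3 and 2 of 2 tested were called higher (*Cdh5*, *Ptprc*, and *Krt8* and *Cdh1*) and 0 lower, osteoblast markers were near 0, and the summed adipocyte markers were higher with PTH in both lines. The 4 endothelial markers summed to 0.349 to 1.07 CPM in WT libraries and 5.78 to 9.12 CPM in Y428F libraries, mostly from *Cdh5*, with *Pecam1* at no more than 0.303 CPM. The 5 haematopoietic markers summed to 0.677 to 1.53 and 2.58 to 3.93 CPM, most of it from *Ptprc* in Y428F cells, with *Cd3e* at 0 counts and *Csf1r* at means of 0.320 and 0.163 CPM with vehicle in WT and Y428F cells. The 4 epithelial markers summed to 0.246 to 0.967 and 2.89 to 4.79 CPM, most of it from *Krt8* in Y428F cells, with *Epcam* at 0 counts. The 5 osteoblast markers never summed above 0.561 CPM. The 4 adipocyte markers summed to 55.3 to 75.1 CPM in WT and 45.4 to 75.4 CPM in Y428F cells. Nearly all of it was from *Pparg* and *Fabp4*, with *Adipoq* at 0 counts. *Pparg*, the adipogenic nuclear receptor, rose with PTH in both lines (log2 fold changes 0.51 and 0.71). *Fabp4* was not called with PTH in either line (-0.09 in WT and 0.32 in Y428F cells). Between the lines *Fabp4* was lower in Y428F cells (-2.03 with vehicle and -1.62 with PTH), and *Pparg* was higher (0.33 and 0.52). The part of these cell-type markers in the SMAD differences was not tested.

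Genes that SMAD proteins act on, and that act on them, were followed in lists written from general knowledge. For each list the median log2 fold change is given, to be read beside the medians of all genes, which were -0.02 and -0.01 with PTH in WT and Y428F cells, 0.01 and 0.02 between the lines with vehicle and PTH, and 0.0017 for the interaction. The counts are to be read beside the shares of all genes called, 13.5%, 12.7%, 45.2%, 45.8% and 0.486% in the same order, and between the lines beside 64.0% and 64.3% of the more expressed genes. Among 14 BMP-SMAD targets 11 were tested, and the medians were 0.22, 0.14, 0.21, 0.67 and -0.30 in that order. With PTH, 4 rose and 0 fell in WT cells, namely the inhibitors of differentiation *Id1*, *Id2* and *Id3* and the bHLH factor *Atoh8*, and in Y428F cells these 4 and *Junb*, an AP-1 subunit, rose and 0 fell. *Id3* had 3.38, 4.66 and 3.33 CPM in WT cells with vehicle and 51.6, 49.0 and 52.6 CPM with PTH, against 78.5, 71.8 and 76.8 and 108, 89.9 and 97.9 CPM in Y428F cells. Its level with vehicle in Y428F cells was thus already above that with PTH in WT cells, and it rose by 3.76 (WT) and 0.38 (Y428F) on the log2 scale. *Id1* showed the same order, with 1.07 to 1.32 CPM and 6.72 to 7.57 CPM in WT cells and 23.0 to 27.3 CPM and 40.0 to 50.7 CPM in Y428F cells. The interaction passed for 5 of the 11 (*Id3* at -3.38, *Id1* at -1.66, *Atoh8* at -1.55, *Id2* at -0.90 and *Junb* at 0.69 on the log2 scale), while it passed for 0 of the 8 SMAD genes. Between the lines with vehicle 5 were higher in Y428F cells (*Id1*, *Id3*, *Atoh8*, *Id2* and *Msx2*) and 3 lower (*Msx1*, *Bambi* and *Junb*), and with PTH 7 were higher and 3 lower (*Msx1*, *Bambi* and *Id4*, the last at a mean of 0.277 CPM in WT cells and 0 in Y428F cells).

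All 16 TGF-β-SMAD targets were tested, with list medians of 0.09 and 0.38 with PTH (WT and Y428F cells), -0.19 and 0.06 between the lines (vehicle and PTH) and 0.08 for the interaction. In WT cells 4 rose with PTH, among them *Acta2*, *Ccn2* and *Tagln*, and 2 fell (the cell cycle inhibitors *Cdkn1a* and *Cdkn2b*). In Y428F cells 8 rose, among them *Ccn2* (log2 fold change 2.04) and *Tagln* (1.26), and 2 fell (*Col1a1* and *Cdkn2b*). The interaction passed for *Acta2* (-1.02) and *Tagln* (-0.55), both of the contractile cytoskeleton, and for *Bhlhe40* (0.61), a bHLH repressor. Between the lines with vehicle 6 were higher in Y428F cells and 8 lower, and with PTH 5 were higher, among them *Ccn2*, *Timp3*, *Skil* and *Tgfbi*, and 5 lower (*Tagln*, *Acta2*, *Fn1*, *Col1a1* and *Cdkn2b*). *Ccn2* is also known as a target of YAP.

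Of 18 ligand genes 8 were tested, with list medians of 0.27 and 0.0023 with PTH (WT and Y428F cells) and 0.52 and 0.39 between the lines (vehicle and PTH). *Inhba*, which encodes the activin A subunit, rose with PTH in both lines (log2 fold changes 0.64 and 0.65), as did *Tgfb2* (0.50 and 0.57), and *Bmp4*, a BMP that drives osteoblast differentiation, fell in Y428F cells (-0.43, edgeR adjusted p = 0.0107). *Bmp4* had 1 to 7 counts in each WT library with vehicle and 3 to 7 with PTH, and 478 to 509 and 322 to 387 counts in Y428F libraries. *Tgfb1*, which encodes TGF-β1, was lower in Y428F cells, with a log2 fold change of -0.75 with vehicle and -0.65 with PTH. With vehicle 3 ligands were higher in Y428F cells (*Bmp4*, *Inhba* and *Gdf11*) and 2 lower (*Tgfb1* and *Tgfb3*), with PTH 4 (those 3 and *Tgfb2*) and 2 (*Tgfb1* and *Tgfb3*), and the interaction passed for 0.

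All 16 receptor and coreceptor genes were tested. Between the lines with vehicle 10 were lower in Y428F cells and 3 higher (*Bmpr1b*, *Tgfbr1* and *Acvr2a*), and with PTH 8 were lower and 1 higher (*Bmpr1b*), where 45.2% and 45.8% of all genes were called. The list medians were -0.40 with vehicle and -0.50 with PTH, beside 0.01 and 0.02 for all genes, and -0.06 and 0.02 for the treatment in WT and Y428F cells. *Acvr2b*, an activin type II receptor, had the largest called difference with vehicle among those with a mean of at least 2 CPM (log2 fold change -2.10). *Tgfbr2*, the type II receptor for TGF-β, had 1137 ± 37.2 CPM (SD, n = 3) in WT cells, against 474 ± 8.32 CPM in Y428F cells (log2 fold change -1.26, edgeR adjusted p = 5.12e-16), and *Rgma* was at -1.25. With PTH against vehicle in WT cells *Tgfbr1*, *Acvr2a* and *Bmpr1a* rose and *Tgfbr3* and *Rgma* fell, in Y428F cells *Rgmb*, *Acvr1*, *Tgfbr1* and *Bmpr1a* rose and *Rgma*, *Acvr1b* and *Tgfbr3* fell, and the interaction passed for 0.

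Among 18 nuclear partners and corepressors, of which 17 were tested, 10 were lower and 4 higher (*Skil*, *Tgif2*, *Ep300* and *Trim33*) in Y428F cells with vehicle, and 9 were lower and 4 higher (the same 4) with PTH. The list medians were -0.38 and -0.42 there, and 0.0031 and 0.03 with PTH in WT and Y428F cells. *Zfp423*, a zinc finger partner of BMP-activated SMADs, had 268 to 339 counts in WT libraries and 14 to 20 in Y428F libraries with vehicle, a log2 fold change of -4.26 (edgeR adjusted p = 2.42e-16). *Zeb2*, a SMAD-binding repressor, was at -1.03. With PTH 1 rose (*Yy1*) and 2 fell (*Zmiz1* and *Zfp423*) in WT cells, 3 rose (*Skil*, *Tgif1* and *Yy1*) and 2 fell (*Zmiz1* and *Zeb1*) in Y428F cells, and the interaction passed for 0.

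All 23 genes of SMAD turnover and traffic were tested, and the list medians were 0.08 and 0.05 with PTH (WT and Y428F cells), -0.07 and -0.09 between the lines (vehicle and PTH) and -0.03 for the interaction. With PTH 5 rose in WT cells (*Ctdspl*, *Smurf1*, *Smurf2*, *Ipo7* and *Usp4*) and 1 fell (*Xpo1*), and 5 rose in Y428F cells (*Pmepa1*, *Smurf1*, *Rnf111*, *Smurf2* and *Ipo7*) and 0 fell. *Smurf1* and *Smurf2*, ubiquitin ligases that act on receptor SMADs and work with the inhibitory ones, thus rose in both lines by 0.25 to 0.32 on the log2 scale. Between the lines with vehicle 8 were higher in Y428F cells, led by the ligase *Nedd4l* (0.73) and the deubiquitinase *Usp15* (0.68), and 7 were lower, led by the phosphatase *Ctdspl* (-0.93), so that 15 of 23 were called where 64.0% of the more expressed genes were. With PTH 7 were higher and 6 lower, and the interaction passed for 0.

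Over the 12 libraries, *Smad6*, *Smad7* and *Smad9* followed each other, with Pearson's r of log2 CPM of 0.94 between *Smad6* and *Smad9*, 0.87 between *Smad6* and *Smad7* and 0.85 between *Smad7* and *Smad9*. *Smad1* and *Smad2* had r = 0.87, and *Smad3* ran against *Smad7* (r = -0.80). These values describe 12 libraries in 4 groups, which share treatment and line, and were not tested. Among 10429 genes averaging 4 CPM or more, the 3 most like *Smad9* were *Fmn1* (r = 0.98), which encodes an actin-nucleating formin, *Eps8* (0.98), an actin-capping adaptor, and *Qki* (0.98), an RNA-binding protein. *Fmn1* had means of 80.0 CPM in WT cells with vehicle and 126 CPM with PTH, and 89.9 and 169.6 CPM in Y428F cells. Those most like *Smad3* were *Nlgn2*, *Adamts14* and *Rxra* (each 0.99), of which *Nlgn2*, a cell adhesion molecule, had 231 and 223 CPM in WT cells and 118 and 97.5 CPM in Y428F cells.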

How the data were processed

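Bulk RNA-Seq of poly-A RNA was mapped by the authors with STAR 2.7.10b to GRCm39 and the GENCODE vM31 basic annotation, and the deposited RSEM expected counts per gene were not scaled. They were rounded and tested with edgeR 4.0.16 under R 4.3.3 (quasi-likelihood, robust, TMM, 4 group means of all 12 libraries), for the 17691 genes whose counts summed to 10 or more (all 8 SMAD genes among them), and p-values were adjusted by Benjamini-Hochberg over all of them. Calls are at an adjusted p under 0.05. Intervals are 95%. CPM per library rests on 17127897 to 19057319 counts. Positions came from GENCODE vM39, which held 56236 of the gene identifiers (744 were not matched). Replicate pairs differed by more than counting noise (chi-square per degree of freedom 2.94 to 15.2). Alternatives were DESeq2 1.42.0 and its size factors, library totals, other filters and limits, only the libraries compared, a replicate block, a length correction and each library left out in turn. The tests were tried on simulated counts. Within the lists, named genes were the 3 largest called changes (mean of at least 2 CPM) and any behind a count of 5 or fewer. The members and lists were chosen with earlier results of these data known. The values of 1 gene counted among the TGF-β-SMAD targets are not reported here.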

Additional observations from a re-analysis of the deposited data

How the results depend on the processing

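All 8 SMAD genes kept the direction of every called change under each alternative that was run. Under the stricter limits (adjusted p below 0.01, log2 change past 0.3) 4 SMAD genes were called for PTH in WT cells, 3 for PTH in Y428F cells, 3 between the lines with vehicle and 4 with PTH, and 1118, 1011 and 38 genes in all for PTH in WT cells, PTH in Y428F cells and the difference in response. Without a filter on low counts 146 genes were called for the difference. With each library left out in turn, 4 to 5, 4 to 7, 3 to 5, 6 to 7 and 0 SMAD genes were called for PTH in WT cells, PTH in Y428F cells, the lines with vehicle, the lines with PTH and the difference, beside 1637 to 2664, 1503 to 2625, 7162 to 8179, 7385 to 8327 and 48 to 109 genes in all. The difference was lowest without Y428F vehicle library 1 (48), with 49, 51 and 54 without Y428F PTH library 3, WT PTH library 1 and Y428F vehicle library 2. The sign turned only for values that were never called. *Smad5* between the lines with vehicle was 0.036 with library totals, 0.037 with the length correction and -0.053 to 0.0039 with a library left out. *Smad2* there was -0.0209 to 0.0325 and *Smad3* with PTH in WT cells -0.0635 to 0.0268 with a library left out. The causes were not tested. Deviations of same-numbered libraries had a mean r of 0.035 (-0.22 to 0.387 over 18 pairs). For differently numbered libraries it was -0.017 (-0.39 to 0.36 over 36 pairs). With 3 libraries per group this does not settle whether libraries of the same number were handled together. With the replicate block 2490, 2352, 8021, 8096 and 95 genes were called, with no SMAD call changed. Depth limits *Smad9* most, at 145 counts in its lowest library.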
